A study of Mus musculus with 4 samples.

Results

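Peptide and metabolic hormone receptors were examined as a group of 35 genes, chosen by symbol from lists of receptors for neuropeptides and circulating hormones other than those for opioids, PACAP, VIP and CGRP. All 35 had a row in the count tables, among 31735 gene rows that the 4 libraries share. The libraries hold ribosome-bound RNA from the rostral pons of adult, untreated mice of 1 line, Cbln2-TRAP NIDA172, in which Cbln2 drives ribosomal protein L10a fused to EGFP. In translating ribosome affinity purification (TRAP), antibodies against EGFP pull down the tagged ribosomes together with the RNA on them, which is meant to favour the cells that make the tagged protein. The 4 libraries, replicates 1 to 4, make up a single group with no contrast of conditions. What can be measured is how high each receptor is, how related receptors compare inside a library and how far replicates lie apart. The labels do not say whether replicates are separate animals or pools, and p-values may therefore measure technical spread only. Libraries of unpurified RNA were not used here, and in bulk RNA fewer cells of a type and less RNA per cell cannot be told apart.

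Most of these receptors span the membrane repeatedly and act through G proteins. Receptors coupled to Gq activate phospholipase C and raise calcium, those coupled to Gi lower cyclic AMP and often open potassium channels, and those coupled to Gs raise cyclic AMP. The insulin and leptin receptors and the natriuretic peptide clearance receptor cross the membrane only a single time. In the rostral pons, peptide receptors are known from the parabrachial nucleus, which relays taste, visceral and pain signals, and from the locus coeruleus, which supplies noradrenaline to much of the brain.

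The libraries held 12731825 to 21140265 gene counts, and levels are given in CPM, counts per 1000000 gene counts of a library. Where a receptor had 0 counts, its level may still be as high as that of 3 counts, which is 0.142 to 0.236 CPM by library (counting error only). Neuronal marker genes were present in all 4 libraries (6 of 6 at 1 CPM or more, summed levels of 10664 to 24531 CPM). So were markers of astrocytes (7 of 8, 480 to 2086 CPM) and oligodendrocytes (6 of 7, 414 to 2390 CPM). Markers of cerebellar granule cells (6 of 6, 129 to 1190 CPM) and Purkinje cells (4 of 4, 672 to 2427 CPM) were found too. Of the mural (2 of 4), microglial (1 of 6), serotonergic (1 of 3) and cholinergic (1 of 3) markers, fewer reached 1 CPM in all 4 libraries. Endothelial markers were present as well (5 of 6, 39.8 to 204 CPM), with Cldn5 at 0 counts in replicate 4. No choroid plexus marker reached 1 CPM in all 4 libraries and Folr1 had no count, but Ttr was at 106 CPM and Kl at 12.5 CPM in replicate 4. The Rn45s row, named for the ribosomal RNA precursor, took up 1.68% and 1.61% of gene counts in replicates 1 and 2, but 24.2% and 9.29% in replicates 3 and 4. Leaving that row out of the totals raised all levels by 0.40 on the log2 scale in replicate 3 and by 0.14 in replicate 4.

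Of the 35 receptors, 15 reached 1 CPM in all 4 libraries, which is 42.9%. The same held for 33.5% of all gene rows and for 50.4% of the rows of protein-coding genes, so the share of receptors lay between these backgrounds. Another 16 receptors reached 1 CPM in some libraries only, Ntsr1, Mc3r and Brs3 stayed below it in all, and Crhr2 had no count. By library, 24, 21, 26 and 26 receptors reached 1 CPM in replicates 1 to 4. Per kb of exon, the scale on which genes can be compared with each other, the median log2 level of the 35 receptors was 0.42 ± 0.30 (SD, n = 4), beside -0.10 for all genes with a length. That background holds noncoding genes too, and 7105 of its 23086 genes had no count. A median over protein-coding genes alone was not computed.

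**Figure D1:**
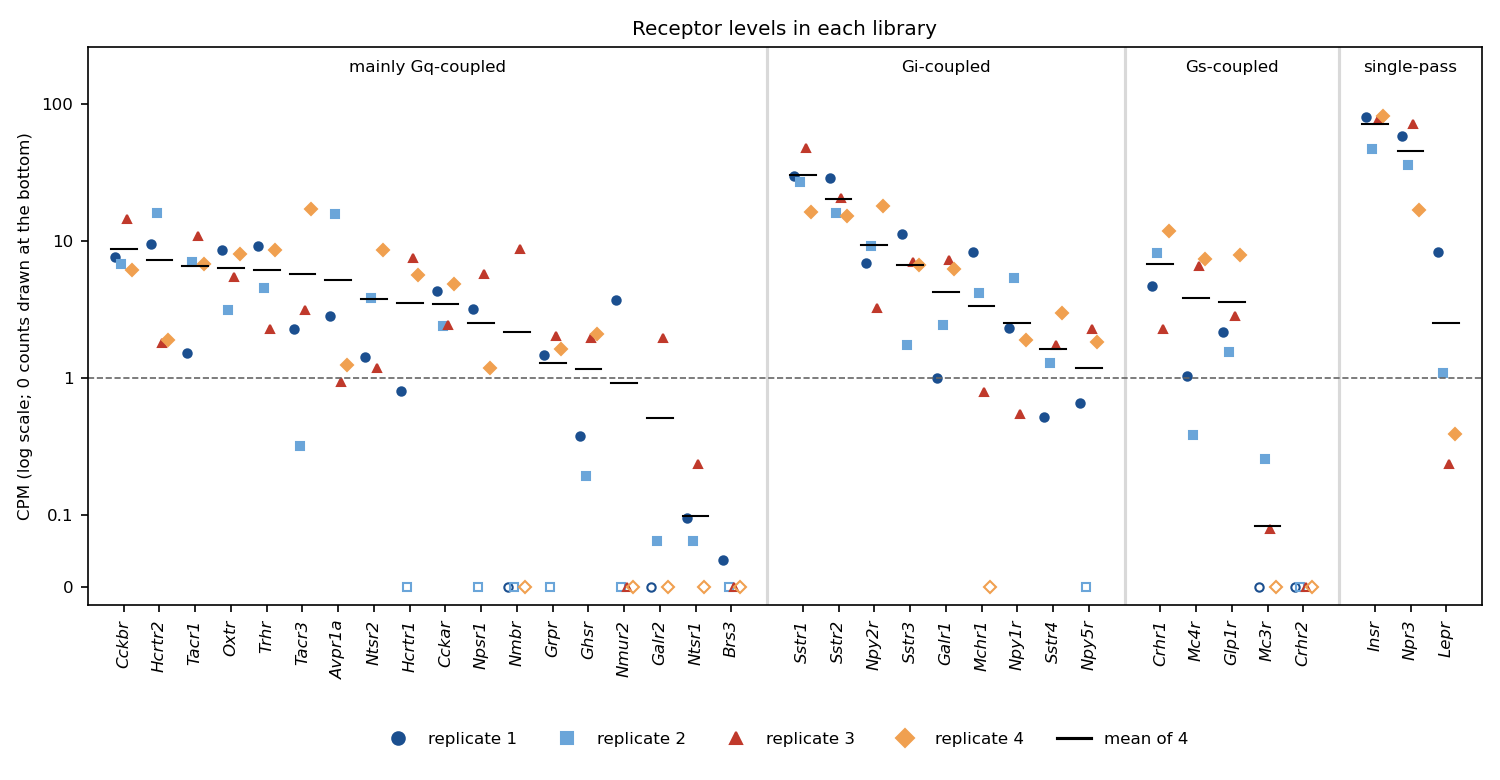
Level of each receptor gene in CPM (log scale) in replicates 1 to 4, ordered by receptor class and mean level. Open symbols at the bottom mark 0 counts, the bars are means and the dashed line is 1 CPM. Insr, Npr3, Sstr1 and Sstr2 lie at 15.1 CPM or more in every library, and 12 receptors have at least 1 open symbol.

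The genes Insr, Npr3, Sstr1 and Sstr2 together held 59.4% of the summed receptor CPM on average over the libraries. Insr (chromosome 8, 3122061 to 3279617, GRCm38), the insulin receptor tyrosine kinase, was at 80.0, 46.7, 76.4 and 81.2 CPM in replicates 1 to 4. Replicate 2 was low and the other libraries lay close together. Npr3 (chromosome 15, 11839896 to 11907287), the clearance receptor that takes up natriuretic peptides, was at 57.9, 35.9, 71.2 and 16.8 CPM. Its lowest library was replicate 4. Per kb of exon Insr was at 5.17 ± 1.19 and Npr3 at 4.84 ± 2.56 CPM per kb (SD, n = 4), a difference smaller than the spread. Counts of Npr3 may include reads of Gm5144, a noncoding gene on the opposite strand that shares 3.42% of the exon length of Npr3.

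Lepr, the leptin receptor, was at 8.33, 1.09, 0.236 and 0.392 CPM in replicates 1 to 4. Only replicate 1 stood above 2 CPM. Insr exceeded Lepr per kb in 4 of 4 libraries, with a log2 ratio of 2.88 ± 0.78 (SD, n = 4). It was 4.17 with a pseudocount of 0.1 CPM per kb in place of 0.5 and 2.24 with 1. By an exact permutation test that flips the sign of each library's ratio, the two-sided p was at the smallest value 4 libraries allow, or 1 in 8, and at 0.194 adjusted over 14 receptor ratios. Both p-values were the same for each of the 9 ratios that went in the same direction in 4 of 4 libraries.

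The somatostatin receptors Sstr1 and Sstr2 were the highest G protein-coupled receptors of the group per kb. Sstr1 (chromosome 12, 58211772 to 58214444) was at 29.7, 27.0, 47.4 and 16.3 CPM in replicates 1 to 4, and Sstr2 (chromosome 11, 113619342 to 113626028) at 28.9, 16, 20.4 and 15.1 CPM. Both are inhibitory Gi-coupled receptors, and neither fell below 15 CPM in any library. Per kb of exon Sstr1 was at 14.7 ± 6.31 and Sstr2 at 9.38 ± 2.95 CPM per kb. Sstr2 lay below Sstr1 in 4 of 4 libraries, but the log2 ratio of -0.57 ± 0.54 was not beyond 2 SD. Sstr3, a somatostatin receptor found on neuronal cilia, was at 11.3, 1.74, 6.99 and 6.66 CPM, with replicate 2 low. Sstr2 exceeded it 5.13-fold per kb (log2 2.36 ± 0.55, above 0 in 4 of 4). Sstr4 was at 0.52, 1.29, 1.73 and 3.0 CPM, below 1 CPM in replicate 1 only.

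Among the neuropeptide Y receptors, Npy2r, often a presynaptic autoreceptor, was highest. It was at 6.95, 9.13, 3.22 and 17.9 CPM in replicates 1 to 4, with replicate 4 high. Npy1r was at 2.32, 5.4, 0.55 and 1.89 CPM and Npy5r, a feeding-related receptor, at 0.662, 0, 2.28 and 1.83 CPM. Npy2r exceeded Npy1r in 4 of 4 libraries (log2 ratio per kb 1.34 ± 0.79, or 2.53-fold), within 2 SD, but beyond it without replicate 2 or without replicate 4. Npy1r and Npy5r lie 9063 bases apart on chromosome 8 and are transcribed from opposite strands. Their ratio was in favour of Npy1r in replicates 1 and 2 and of Npy5r in replicates 3 and 4 (log2 of Npy5r to Npy1r -0.34 ± 1.33, exact permutation p = 0.75, adjusted p = 1).

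Galr1 and Mchr1, Gi-coupled receptors for galanin and melanin-concentrating hormone, were uneven. Galr1 was at 0.993, 2.44, 7.23 and 6.27 CPM in replicates 1 to 4, so that replicates 3 and 4 were above the other libraries. Mchr1 was at 8.37, 4.18, 0.785 and 0 CPM, so that here replicates 1 and 2 were above the others. Galr2, which also couples to Gq, was at 1.96 CPM in replicate 3 and at 0, 0.0643 and 0 CPM in the others. Galr1 exceeded Galr2 in 4 of 4 libraries (log2 ratio per kb 1.40 ± 0.70). Galr2 had at most 1 count in 3 of the libraries, so the pseudocount sets the size of this ratio, which was 2.73 with a pseudocount of 0.1 and 0.95 with 1.

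Among the 18 receptors that couple mainly to Gq, 7 reached 1 CPM in all 4 libraries. Cckbr, the brain-type cholecystokinin receptor, led them with 7.62, 6.75, 14.4 and 6.14 CPM in replicates 1 to 4. Only replicate 3 stood apart, above the other libraries. Cckar, the cholecystokinin receptor known from vagal satiety signalling, was at 4.30, 2.38, 2.43 and 4.83 CPM. Cckbr exceeded it in 4 of 4 libraries (log2 ratio per kb 1.26 ± 0.73, or 2.39-fold), within 2 SD, but beyond it without replicate 3 or without replicate 4.

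Tacr1, the substance P receptor, was at 1.51, 7.01, 10.8 and 6.79 CPM in replicates 1 to 4, low in replicate 1. Tacr3, the neurokinin B receptor, was at 2.27, 0.321, 3.14 and 17.1 CPM, high in replicate 4. The log2 ratio of Tacr1 to Tacr3 per kb was -0.04 ± 1.39, above 0 in 2 of 4 libraries, and turned to 0.51 without replicate 4. These receptors did not differ beyond the spread (exact permutation p = 1, adjusted p = 1).

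The orexin receptors gave the widest spread of the 14 ratios. Hcrtr2 was at 9.46, 15.9, 1.81 and 1.89 CPM in replicates 1 to 4 and Hcrtr1 at 0.804, 0, 7.54 and 5.68 CPM. Hcrtr2 was thus the higher of them in replicates 1 and 2, and Hcrtr1 in replicates 3 and 4. The log2 ratio of Hcrtr1 to Hcrtr2 per kb was -0.03 ± 2.31 (exact permutation p = 1, adjusted p = 1). Hcrtr1 is known as the main orexin receptor of noradrenergic cells of the locus coeruleus. The noradrenergic marker genes summed to 64.9, 23.1, 73.8 and 246 CPM in the same libraries, with 3 of 5 at 1 CPM or more in all 4 and Phox2a at 0 in replicates 1 and 2. From high to low these libraries fall in the order 4, 3, 1, 2, an order also held by Tacr3, Mc4r, Ghsr and Glp1r, or 4 of 28 tested receptors beside 7.4% of tested genes. The part of noradrenergic RNA in these levels and in that of Hcrtr1 was not tested.

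Oxtr, the oxytocin receptor, was at 8.56, 3.15, 5.50 and 8.10 CPM in replicates 1 to 4. Avpr1a, a vasopressin receptor, was at 2.84, 15.8, 0.943 and 1.24 CPM, high in replicate 2 only. Avpr1a exceeded Oxtr only in replicate 2, and the log2 ratio per kb was -0.05 ± 1.70 (exact permutation p = 1, adjusted p = 1). Without replicate 2 the log2 ratio was -0.89. Npy1r, Hcrtr2 and Avpr1a each had their libraries in the order 2, 1, 4, 3 from high to low. This order is also that of the summed granule cell markers, at 526, 1190, 129 and 226 CPM in replicates 1 to 4. It was found in 3 of 28 tested receptors and in 6.31% of 13905 tested genes. The part of granule cell RNA in these levels was not tested.

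Trhr, the receptor for thyrotropin-releasing hormone, was at 9.22, 4.50, 2.28 and 8.55 CPM in replicates 1 to 4. Replicate 3 was its lowest library. Several other Gq-coupled receptors were present in only some libraries. Nmbr, the neuromedin B receptor, had all of its 111 counts in replicate 3, at 8.72 CPM. An antisense gene shares 15.6% of its exon length, and reads of both genes cannot be told apart without strand. Nmur2, a neuromedin U receptor, had all of its 78 counts in replicate 1, at 3.69 CPM. Grpr, the gastrin-releasing peptide receptor known from itch circuits, was at 1.47, 0, 2.04 and 1.63 CPM. The log2 ratio of Nmbr to Grpr per kb was -0.26 ± 1.17 and above 0 only in replicate 3 (exact permutation p = 1, adjusted p = 1). Npsr1, the neuropeptide S receptor, was at 3.17, 0, 5.73 and 1.18 CPM, absent from the counts of replicate 2. Ghsr, the ghrelin receptor, ranged from 0.193 to 2.09 CPM. Brs3, an orphan receptor related to the bombesin receptors, had 1 count in all.

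Of the 5 Gs-coupled receptors, Crhr1 and Glp1r reached 1 CPM in all 4 libraries. Mc4r, a melanocortin receptor that restrains feeding, was at 1.04, 0.386, 6.52 and 7.44 CPM in replicates 1 to 4. Replicates 3 and 4 were above replicates 1 and 2. Mc3r had 5 counts over all libraries, and Mc4r had 225. Over the summed counts per kb, Mc4r exceeded Mc3r 42.1-fold (95% exact interval 17.8 to 131, counting error only). Single libraries move this value, to 20.8-fold without replicate 4 and to 205-fold without replicate 2 (219 counts against 1, interval 36.4 to 8131). With a pseudocount of 0.5 CPM per kb, which lowers ratios of rare genes, the log2 ratio was 1.49 ± 1.24, above 0 in 4 of 4 libraries. In replicate 2 it was only 0.092, from 6 counts of Mc4r against 4 of Mc3r. Glp1r, the receptor for glucagon-like peptide 1, was at 2.18, 1.54, 2.83 and 7.90 CPM, high in replicate 4.

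Counts of the G protein-coupled receptors for corticotropin-releasing hormone and for neurotensin each came almost entirely from 1 of their 2 genes. Sort1, which also binds neurotensin, is given with the further receptors below. Crhr1, the stress-peptide receptor of many central neurons, was at 4.68, 8.23, 2.28 and 11.9 CPM in replicates 1 to 4, and Crhr2 had no count in any library. Over the group Crhr1 was at least 304-fold higher per kb, against a floor of 3 counts over the 4 libraries, and at least 177-fold without replicate 4. Ntsr2, a neurotensin receptor known from astrocytes as well as neurons, was at 1.42, 3.86, 1.18 and 8.62 CPM. Ntsr1 had 2, 1, 3 and 0 counts, and Ntsr2 exceeded it 49.6-fold per kb over the summed counts (95% exact interval 22.4 to 136, counting error only). The fold was 22 without replicate 4 and 92.9 without replicate 3. The libraries of Ntsr2, of Npy2r and of Crhr1 fell in the order 4, 2, 1, 3 from high to low, as did the summed astrocyte markers at 1347, 1570, 480 and 2086 CPM in replicates 1 to 4. This order was found in 3 of 28 tested receptors and in 4.06% of tested genes. The summed oligodendrocyte markers held the same order, at 1426, 1730, 414 and 2390 CPM in replicates 1 to 4. Of single astrocyte markers Slc1a2 and Aldoc held it, and Aldh1l1, Gfap, Slc1a3, Aqp4, Gja1 and S100b did not. The part of astrocyte or oligodendrocyte RNA in these levels was not tested.

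Sequences before the start sites of these 4 genes are shown because the detected and the missing receptor differ in opposite ways in CpG content. Each is the stretch from 250 to 101 bases before the RefSeq start (GRCm38.p6), written 5′ to 3′ on the strand of the gene, with CpG dinucleotides in capitals.
Crhr1 (chr11:104132531-104132680, plus strand): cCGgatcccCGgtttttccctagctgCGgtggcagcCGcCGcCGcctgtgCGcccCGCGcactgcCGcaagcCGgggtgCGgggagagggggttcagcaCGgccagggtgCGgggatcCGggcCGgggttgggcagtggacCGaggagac
Crhr2 (chr6:55133117-55133266, minus strand): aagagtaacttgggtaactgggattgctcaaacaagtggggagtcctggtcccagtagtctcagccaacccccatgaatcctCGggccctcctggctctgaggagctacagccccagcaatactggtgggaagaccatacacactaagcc
Ntsr1 (chr2:180499726-180499875, plus strand): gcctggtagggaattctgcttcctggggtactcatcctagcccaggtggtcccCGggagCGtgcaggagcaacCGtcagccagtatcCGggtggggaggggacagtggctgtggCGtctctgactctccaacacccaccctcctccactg
Ntsr2 (chr12:16653220-16653369, plus strand): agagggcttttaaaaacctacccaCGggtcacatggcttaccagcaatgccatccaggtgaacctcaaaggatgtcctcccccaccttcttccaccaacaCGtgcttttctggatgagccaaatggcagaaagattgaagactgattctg
In the full 250 bases before the start, Crhr1 had 25 CpG and the uncounted Crhr2 had 4. For neurotensin the nearly missing Ntsr1 had 18 CpG and the detected Ntsr2 had 4. Crhr2 has several RefSeq transcripts, and only the start given in the promoter table was examined. A promoter was found by symbol for 29 of the 35 receptors, and not for Sstr1, Cckar, Trhr, Galr1, Mc4r and Insr. CpG dinucleotides (the letters CG, the same on both strands) were counted there. A gene with several starts in the promoter table was given its highest count, which among the receptors applied to Hcrtr1, Sstr3 and Lepr.

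Across all genes, CpG count and detection went together, with a median of 18 CpG among the 8030 genes detected throughout (at least 1 CPM in every library) and of 4 among 9028 other genes. Among receptors the medians were 9 for the 11 detected throughout and 8.5 for the other 18. The ranges were 4 to 26 and 2 to 28, so they overlapped almost fully. Hcrtr2 and Ntsr2, both detected throughout, had 4 CpG each, and Sstr4, with the highest count of 28, was not detected throughout.

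**Figure D2:**
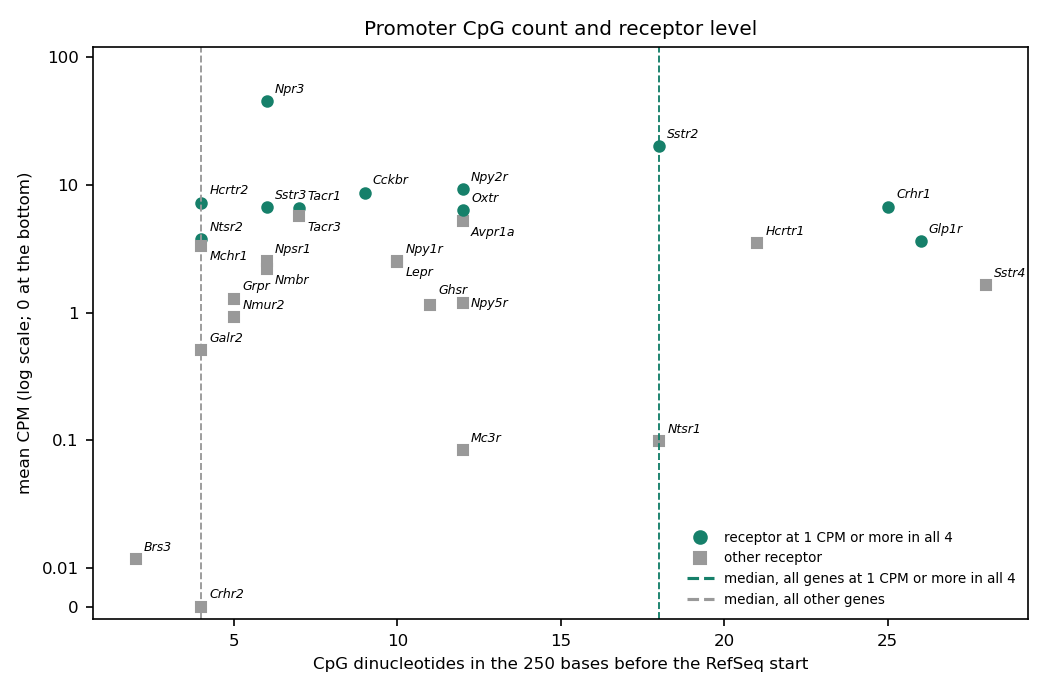
Number of CpG dinucleotides in the 250 bases before the RefSeq start (horizontal) against the mean CPM over 4 libraries (log scale, vertical) for 29 receptors. A gene with several starts is given its highest count. Circles are receptors at 1 CPM or more in all 4 libraries, squares the others, and dashed lines mark the medians of all genes, 18 for genes detected throughout and 4 for the rest. Circles and squares cover similar ranges of CpG.

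**Figure D3:**
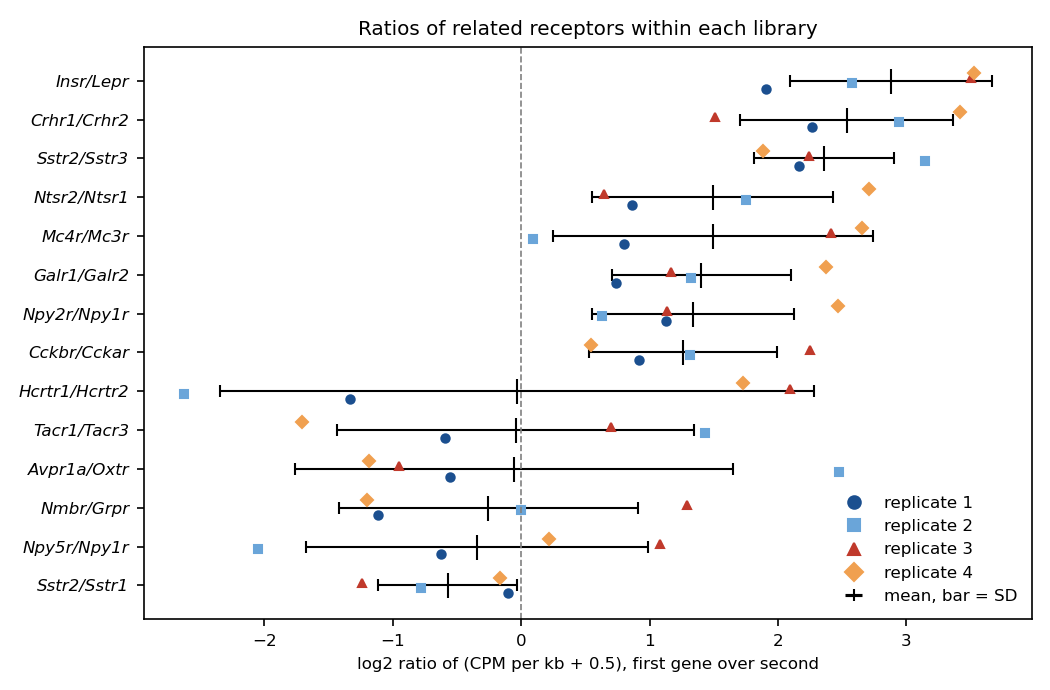
Log2 ratio of 14 pairs of receptors within each library, from CPM per kb with a pseudocount of 0.5. Each pair is of 1 peptide family, except Insr and Lepr. Symbols are replicates 1 to 4, and the black mark and bar are the mean and SD. In 9 pairs all 4 symbols lie on the same side of 0, and Hcrtr1 to Hcrtr2 has the widest bar.

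Of the 14 receptor ratios, 9 went in the same direction in 4 of 4 libraries. Each compares receptors of 1 peptide family, except that of Insr to Lepr, which bind different hormones. In 4 of these the mean was beyond 2 SD, namely Insr over Lepr, Sstr2 over Sstr3, Crhr1 over Crhr2 and Galr1 over Galr2. For Galr1 over Galr2 the margin was narrow, and the mean was within 2 SD with a pseudocount of 1, with the longest transcript as length, without replicate 2 and without replicate 3. The other 5 ratios (Tacr1 to Tacr3, Npy5r to Npy1r, Nmbr to Grpr, Hcrtr1 to Hcrtr2 and Avpr1a to Oxtr) held libraries on both sides of 0 or at 0.

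The ligand genes of these receptors were mostly missing from the same RNA. Of 33 ligand genes, 5 reached 1 CPM in all 4 libraries, beside 33.5% of all gene rows and 50.4% of protein-coding rows. No count in any library was found for 17 of the 33, beside 7105 of 23086 genes with a length. The 5 were Tac1 (substance P) at 422 ± 297 CPM, Cck at 78.3 ± 17.2, Sst at 62.8 ± 30.4, Nts at 32.5 ± 18.0 and Crh at 4.45 ± 2.13 CPM (SD, n = 4). Per kb of exon Tac1 was at 124 ± 87.3, Sst at 87.1 ± 42.1 and Cck at 60.0 ± 13.2 CPM per kb. All 3 lay above every receptor on the same scale.

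Grouped into 20 peptide families, 5 families had both a ligand gene and a receptor gene at 1 CPM or more in all 4 libraries. These were the tachykinin, somatostatin, cholecystokinin, corticotropin-releasing hormone and neurotensin families. In 7 families only a receptor did, and in 5 of those the ligand genes had no count at all. Those 5 were thyrotropin-releasing hormone with Trhr, orexin with Hcrtr2, vasopressin and oxytocin with Oxtr, insulin with Insr, and glucagon-like peptide 1 with Glp1r. Their ligands are known to be made in the hypothalamus, in other brain nuclei or outside the brain. Neuropeptide Y and natriuretic peptides made up the 7, with 33 ligand counts each over all libraries. The other 8 families had neither, and no family had a ligand gene alone.

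**Figure D4:**
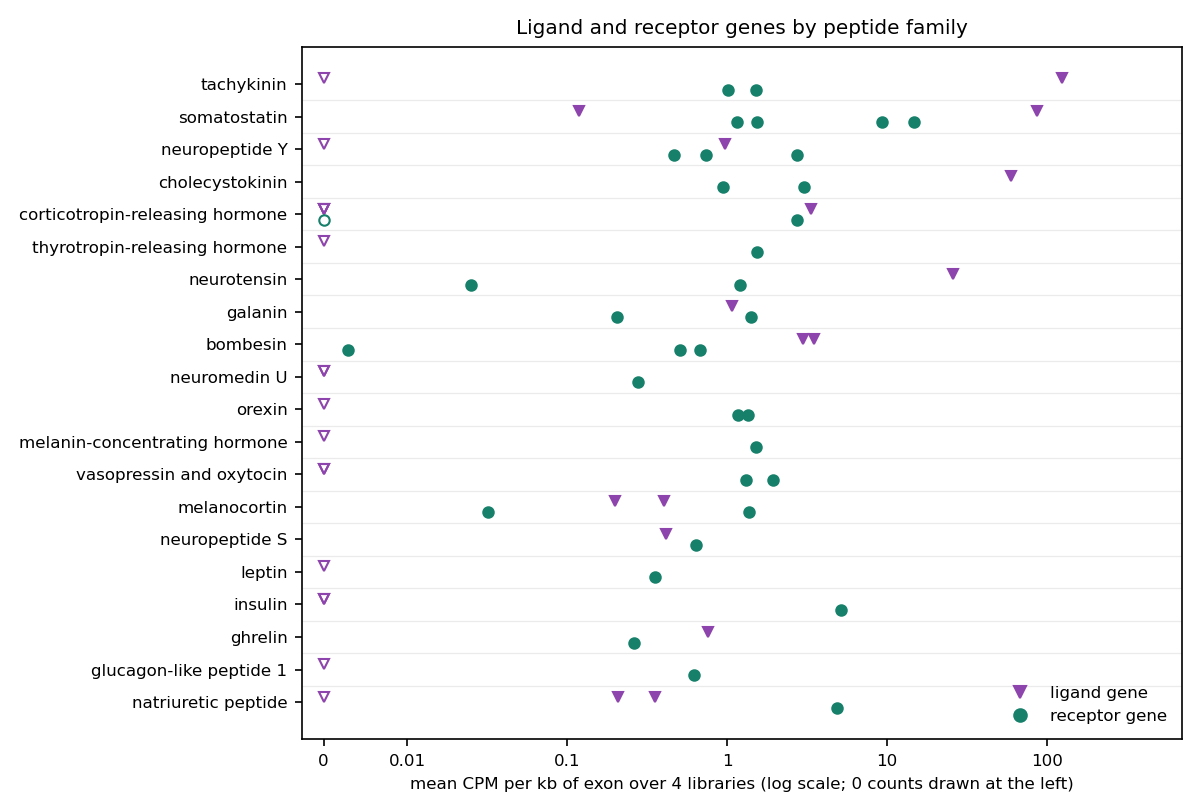
Mean level per kb of exon over 4 libraries (log scale) of ligand genes (triangles) and receptor genes (circles) in 20 peptide families. Open symbols at the left have no count. Tac1, Sst, Cck and Nts lie to the right of all receptors, and the orexin, insulin, leptin, oxytocin and vasopressin ligands lie at the left edge.

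Of 27 further peptide and hormone receptors with a row, 6 reached 1 CPM in all 4 libraries. They were Sort1, which binds neurotensin and sorts proteins, at 172 ± 97.9 CPM, Igf1r, the insulin-like growth factor receptor, at 133 ± 64.1, and Prlr, the prolactin receptor, at 45.5 ± 24.5 CPM (SD, n = 4). Prokr2, a prokineticin receptor, was at 29.5 ± 11.5 CPM, Npr2, a natriuretic peptide receptor with guanylyl cyclase activity, at 13.3 ± 9.36, and the growth hormone receptor gene Ghr at 12.8 ± 12.4 CPM. Per kb Igf1r was at 7.90 ± 3.82 CPM per kb, beside 5.17 ± 1.19 for Insr, with overlapping spreads.

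All 21 signal transduction genes that these receptors act through reached 1 CPM in all 4 libraries. The 8 highest were Gnas, which encodes the Gs alpha subunit, at 3129 ± 288 CPM, Gnao1 (Go) at 1687 ± 413, Gnai1 (Gi) at 639 ± 344, Plcb4 (phospholipase C beta) at 621 ± 442, Gnaq (Gq) at 348 ± 22, Arrb1 (arrestin) at 212 ± 44.9, Plcb1 at 157 ± 49.8 and Gnai2 at 138 ± 46.6 CPM (SD, n = 4). Each of these means was above that of Insr, the highest of the 35 receptors in CPM, at 71.1 ± 16.4. Sort1, among the further receptors, was above Plcb1 and Gnai2 in CPM. Per kb of exon Plcb1 was at 14.1 ± 4.48 CPM per kb, beside 14.7 ± 6.31 for Sstr1, with overlapping spreads.

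In 9 of the 15 receptors detected throughout (60%), the highest library was over 4 times the lowest, beside 32.1% of all genes detected throughout. The median of that ratio was 4.25 for these receptors and 2.90 for all such genes. These receptors and the other genes were not matched on level. Among the 25 receptors with a mean of 1 to 10 CPM, 6 (24%) had no count in at least 1 library, beside 24.1% of all genes in that range.

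The descriptions number the libraries 1666 and 1667 (replicates 1 and 2) and 2469 and 2470 (replicates 3 and 4). The description of replicate 4 itself ends in a tag for replicate 3, and the title was followed. The labels name no batch. The second of these pairs was compared with the first over all genes to see whether receptors moved between them. By edgeR's quasi-likelihood test with Benjamini-Hochberg adjustment, 0 of the 28 receptors tested were called at an adjusted p under 0.05, beside 1.27% of all genes tested (176 of 13905, with 0.712% higher and 0.554% lower in the second pair). Only Hcrtr2 had an unadjusted p under 0.05 by edgeR, beside 2334 of the 13905 genes tested. DESeq2 called 1 of 34 receptors, Nmbr, beside 7.65% of all genes. By DESeq2, 8 receptors had an unadjusted p under 0.05, beside 3264 of 18346 genes. Nmbr rested on replicate 3 alone and did not reach the count filter of the edgeR test. Without that filter edgeR called 0 of 34 receptors (4.77% of all genes), with 2 at an unadjusted p under 0.05. Without replicate 1, 2 or 3 in turn edgeR called 0 receptors (4.6%, 4.29% and 2.74% of all genes), with 6, 3 and 2 at an unadjusted p under 0.05. Without replicate 4 it called Nmbr alone (2.59% of all genes). A pair left with 1 library was assumed to vary like the other pair.

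Among the 28 receptors that edgeR tested, the largest differences between the pairs were those of Hcrtr1, Mchr1, Lepr, Mc4r and Avpr1a. Mean Hcrtr1 was 0.402 CPM in replicates 1 and 2 against 6.61 CPM in replicates 3 and 4 (log2 change 4.04, SE 1.93, edgeR adjusted p = 0.319), and Mc4r at 0.713 and 6.98 CPM (log2 3.29, SE 1.57, adjusted p = 0.317). Hcrtr2 was at 12.7 and 1.85 CPM (log2 -2.76, SE 1.19, edgeR adjusted p = 0.261). The log2 changes were -3.87 for Mchr1, -3.86 for Lepr and -3.09 for Avpr1a, all with adjusted p over 0.3 by edgeR. None of these passed the test.

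In CPM, both libraries of the second pair lay above both of the first for 9 of the 28 receptors (32.1%, beside 23.7% of all genes tested) and below for 5 (17.9%, beside 23.8%). The 9 were Tacr3, Sstr4, Npy5r, Galr1, Grpr, Hcrtr1, Mc4r, Ghsr and Glp1r, and the 5 were Npy1r, Hcrtr2, Mchr1, Avpr1a and Lepr. Counts this near the background are not a result about receptors. The abundant Insr, Npr3, Sstr1 and Sstr2 differed between the pairs by log2 values of 0.34, -0.0017, 0.24 and -0.30. Small estimates were not confined to them. Crhr1, Sstr3, Cckar, Oxtr and Npy2r had log2 changes of 0.073, 0.10, 0.11, 0.22 and 0.33, with larger SE, and the remaining receptors had larger changes. Npr3 itself was uneven inside the second pair, at 71.2 and 16.8 CPM in replicates 3 and 4.

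**Figure D5:**
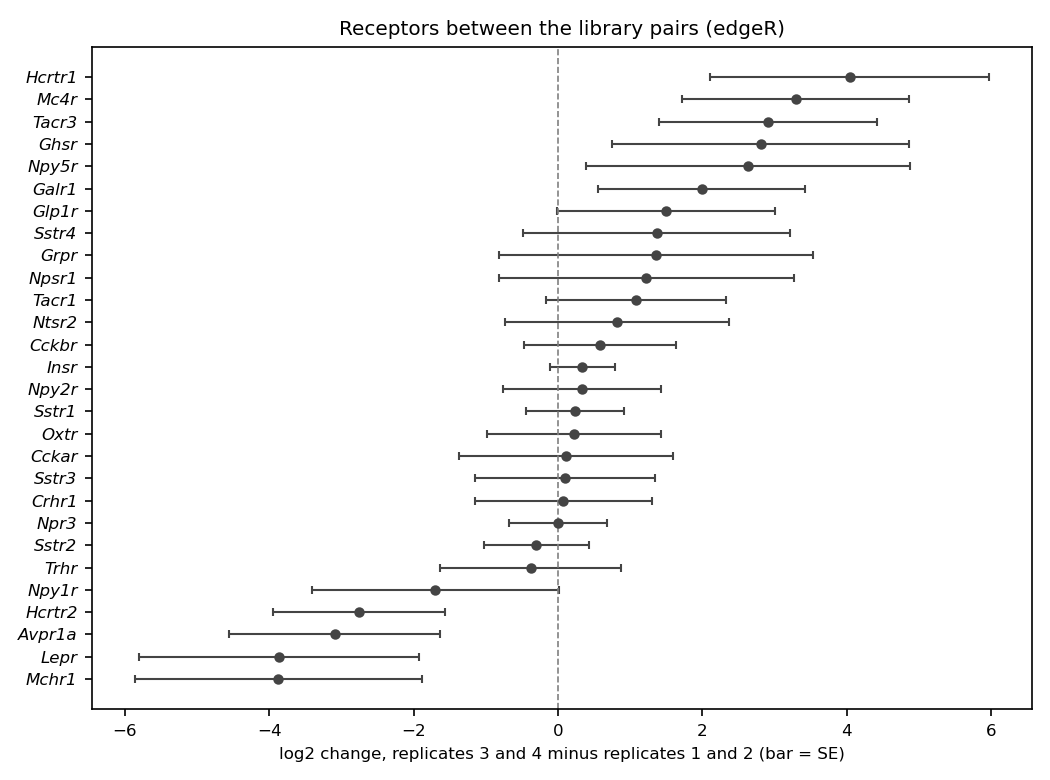
Log2 change of 28 receptors, replicates 3 and 4 minus replicates 1 and 2, from edgeR, with SE bars. Points to the right are higher in replicates 3 and 4. No receptor passed an adjusted p of 0.05, and the abundant Insr, Npr3, Sstr1 and Sstr2 have the shortest bars, near 0.

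Among ligand genes, 1 of 8 tested fell in the second pair, namely Tac1, with means of 648 and 196 CPM (log2 change -1.69, SE 0.36; edgeR adjusted p = 0.0447). Its receptor Tacr1 did not pass (4.26 and 8.81 CPM, log2 1.08, SE 1.25, edgeR adjusted p = 0.738). Of the signal transduction genes, 2 of 21 were called by edgeR. Adrbk1, which encodes the receptor kinase GRK2, rose by 2.44 on the log2 scale (SE 0.49), with means of 18.2 and 98.4 CPM (edgeR adjusted p = 0.0353). Plcb4 fell by 1.69 (SE 0.35), with means of 949 and 292 CPM (edgeR adjusted p = 0.0386). The calls ended for Tac1 without replicate 1 (adjusted p = 0.0776), for Plcb4 without replicate 2 (0.127) and for Adrbk1 without replicate 4 (0.0511). None of 9 further receptors tested was called. All 6 granule cell markers had lower estimates in the second pair, and Cbln3 and Neurod1 were called. Of the 4 Purkinje cell markers Car8 and Itpr1 were called lower, while Pcp2 and Calb1 had higher estimates and were not called. Also called lower was the neuronal marker Nefm, and the noradrenergic marker Th was called higher. Their part in these calls was not tested.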

How the data were processed

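Ribosome-bound RNA of 4 immunopurified libraries was analysed from deposited read counts per gene symbol, raw and without normalization. The submitters' processing notes name STAR 2.0.0e, HTSeq and the mm10 build as the tools behind the authors' counts. Which annotation and strand setting went into counting is not given in the sources used here. HTSeq summary rows were left out of totals, with 24.0% to 30.1% of a library outside features, 28.6% to 37.2% aligned more than once and 1.25% to 2.07% ambiguous. The row unknown held 0 counts. CPM used all gene rows of a library, and tests used the 31735 shared rows. One count was worth 0.0473 to 0.0785 CPM. Genes were compared per kb of union exon length from GENCODE M21 (GRCm38), found for 23086 rows, as log2(CPM per kb + 0.5).

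Ratios of receptors of 1 peptide family, and of Insr to Lepr, were tested by exact permutation of their signs over 4 libraries, two-sided. Library pairs were compared by the quasi-likelihood test of edgeR 4.0.16, after filterByExpr and TMM scaling, and with DESeq2 1.42.0 as an alternative. SE is the log2 change divided by the square root of F. The edgeR step was tested on simulated data. Promoters were taken from RefSeq tables of GRCm38.p6.

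The members and lists were chosen with earlier results of these data known. Every receptor is accounted for. Those at 1 CPM or more in all 4 libraries, or in some, are given by library or range, and of other lists at most the 8 highest genes detected throughout and any gene called between pairs, markers apart. Alternatives covered detection limits, pseudocounts, length, scaling, filters and leaving out each replicate. TMM-scaled and Rn45s-free levels, changes of single receptors under other settings, and ratios of summed counts without each library were chosen after seeing the data.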

Additional observations from a re-analysis of the deposited data

Results flagged for a closer look

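Of 68 values examined (34 receptors with counts, 20 named genes of the other lists and the 14 ratios), 10 had 1 library far from the other 3, by a gap past Dixon's 95% critical value for 4 samples. For normally distributed values such a gap is met in about 1 of 20 groups of 4. Levels of rare genes are not distributed so, and a gene with counts in 1 library only is always flagged. The share over all genes was not computed, so the 10 cannot be set against chance. Among receptors this held for Tacr3 in replicate 4 (17.1 CPM), Galr2 in replicate 3 (1.96 CPM), Nmbr in replicate 3 (8.72 CPM), Nmur2 in replicate 1 (3.69 CPM), Avpr1a in replicate 2 (15.8 CPM), Lepr in replicate 1 (8.33 CPM) and Brs3 in replicate 1 (0.0473 CPM, a single count). Insr stood low in replicate 2 (46.7 CPM). Outside the receptors, the ligand gene Sst stood high in replicate 4 (108 CPM) and the growth hormone receptor gene Ghr in replicate 2 (31.2 CPM). The high libraries differ between genes, and the causes were not tested.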

How the results depend on the processing

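No paired analysis was possible because the libraries form a single group and share no replicate number across groups. The number of receptors at 1 CPM or more in all 4 libraries was 15, and 19, 17 and 16 at a limit of 0.5 CPM, without the Rn45s row and with TMM-scaled sizes. At a limit of 5 CPM it was 5, and 15 to 19 when each replicate was left out. The median log2 level of the receptors was 0.42 as reported, -0.10 and 0.89 with pseudocounts of 0.1 and 1, and 1.64 without division by length, shifts that follow from the scale itself. Leaving out each replicate gave 0.28 to 0.50. Between the library pairs 1 receptor, Nmbr, was called by DESeq2 (adjusted p = 0.0252) and by edgeR without replicate 4 (0.0488), and its adjusted p was up to 0.162 under the other settings that tested it. The number called was 0 to 1 when each replicate was left out. Over all genes the 176 calls became 1403 by DESeq2, 875 without a filter and 389 to 699 when each replicate was left out, and the cause was not tested.

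Of 112 ratios of receptors under alternatives, 97 kept their direction and 15 reversed, all in 5 ratios that were within their spread. Tacr1 to Tacr3 was 0.12 with a pseudocount of 0.1, 0.77 without division by length, 0.20 with the longest transcript and -0.53 to 0.51 when each replicate was left out. Hcrtr1 to Hcrtr2 was 0.019 with a pseudocount of 1 and -0.74 to 0.83, and Avpr1a to Oxtr 0.021 and -0.89 to 0.32 when each was left out. Npy5r to Npy1r ran from -0.82 to 0.22 and Nmbr to Grpr from -0.77 to 0.059. Depth limits the rare receptors, since 1 CPM is 12.7 to 21.1 counts here.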
